A study of Mus musculus with 4 samples.

Results

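The matrix metalloproteinases (Mmp genes), the ADAMTS proteases, the ADAMTS-like proteins and the tissue inhibitors of metalloproteinases (Timp genes) were followed in the livers of mice with and without Lpiat1 in hepatocytes. Members were taken by name: every gene on the array whose mouse symbol starts with Mmp, Adamts, Adamtsl or Timp, except Mmp12. This gave 50 of the 23462 genes with a probe: 22 MMP, 19 ADAMTS, 5 ADAMTS-like and 4 TIMP genes. Lpiat1, also named Mboat7, encodes the enzyme that puts arachidonic acid into phosphatidylinositol. Both genotypes carried floxed Lpiat1 alleles. F/F mice had no Cre, and LKO mice also carried Alb-Cre, whose albumin promoter is active in hepatocytes. Whether each other cell type of the liver kept the gene is not shown by these data. All mice were males on the C57BL/6 background and were 24 weeks old. From 6 weeks of age they had received either chow or a high fat diet (HFD) for 18 weeks. Total liver RNA of each of the 4 conditions (either genotype on either diet) was measured on 1 one-colour Agilent array. The sources used here do not say how many mice gave the RNA of an array. With 1 array per condition no difference has a replicate check, and no test was made.

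MMPs are zinc-dependent enzymes that cut collagens, proteoglycans and other matrix proteins, and they are made as inactive precursors. ADAMTS proteases are secreted relatives that trim procollagens, cleave proteoglycans such as aggrecan and versican, or cut single plasma and matrix proteins, whereas ADAMTS-like proteins lack the protease domain and bind matrix fibres. TIMPs block the active site of these enzymes. In the injured liver, hepatic stellate cells and macrophages are known sources of both the proteases and their inhibitors, and scar is laid down and removed under their balance.

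A group of Mmp genes lies side by side on mouse chromosome 9, and several of them are textbook targets of the transcription factor AP-1. RefSeq promoters, from 250 bases before to 50 bases after the annotated start (GRCm38.p6), were at hand for 35 of the 50 members, as 37 windows. The letters TGANTCA, an AP-1 motif, occurred in 7 of these windows (18.9%) and in 7.81% of all 32851 promoter windows. The 7 genes were Mmp1a, Mmp1b, Mmp3, Mmp7, Mmp10, Mmp13 and Mmp20. The core letters of the TATA box (TATAAA) occurred in 11 of the 37 windows (29.7%) and in 13.6% of all windows. Both motifs were searched on both strands, and they do not overlap each other in the windows printed here. The 4 promoters are shown because they belong to the 2 members with the largest differences on HFD (Mmp7 and Mmp13), to a neighbour with the same motifs that was not detected in these livers (Mmp10), and to the ADAMTS-like gene with the largest difference on HFD (Adamtsl2). Capitals mark the motifs.
Mmp7, chr9:7691840-7692139, + strand: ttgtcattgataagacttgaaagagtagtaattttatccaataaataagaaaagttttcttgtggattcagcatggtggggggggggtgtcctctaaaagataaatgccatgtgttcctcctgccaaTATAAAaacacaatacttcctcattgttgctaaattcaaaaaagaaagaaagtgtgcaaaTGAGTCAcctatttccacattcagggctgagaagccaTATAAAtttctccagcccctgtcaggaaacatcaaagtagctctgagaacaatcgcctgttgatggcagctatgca
Mmp13, chr9:7272264-7272563, + strand: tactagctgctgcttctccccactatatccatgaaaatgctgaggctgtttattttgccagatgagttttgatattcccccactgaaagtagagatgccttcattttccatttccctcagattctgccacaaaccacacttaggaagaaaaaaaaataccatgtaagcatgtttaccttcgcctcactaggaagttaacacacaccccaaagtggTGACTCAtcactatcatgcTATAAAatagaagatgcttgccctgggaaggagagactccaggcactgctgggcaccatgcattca
Mmp10, chr9:7502092-7502391, + strand: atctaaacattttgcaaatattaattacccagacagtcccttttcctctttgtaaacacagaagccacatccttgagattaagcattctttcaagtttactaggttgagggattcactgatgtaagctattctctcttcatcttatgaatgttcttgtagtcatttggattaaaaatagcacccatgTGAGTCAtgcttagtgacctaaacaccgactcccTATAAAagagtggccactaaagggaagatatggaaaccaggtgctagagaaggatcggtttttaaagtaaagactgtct
Adamtsl2, chr2:27079129-27079428, + strand: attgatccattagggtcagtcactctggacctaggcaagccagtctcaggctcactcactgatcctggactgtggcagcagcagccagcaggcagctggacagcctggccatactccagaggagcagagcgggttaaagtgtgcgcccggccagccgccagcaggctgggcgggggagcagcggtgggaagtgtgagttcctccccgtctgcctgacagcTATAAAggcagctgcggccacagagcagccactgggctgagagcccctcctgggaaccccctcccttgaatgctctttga
In Mmp7 the AP-1 letters start 63 bases before the annotated start and the TATA letters 123 and 26 bases before it. In Mmp13 they start 35 and 16 bases before it, and in Mmp10 63 and 29 bases before it. The Adamtsl2 window holds TATA letters 30 bases before the start and no AP-1 letters. A second Mmp7 window, which begins further downstream, holds neither motif. A match of letters is a description of the sequence and does not show that a factor binds there.

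Levels are given as scaled signals, which are fluorescence units brought to a common 75th percentile, so that the log2 of the ratio of a gene's signals on 2 arrays is its log2 difference. Signals of different genes come from different probes and are not set against each other. The arrays had 53 to 57% of the spots well above background and no saturated spot, and the unscaled 75th percentile ran from 213 to 296. LKO chow was at the lower end of both ranges and LKO HFD at the upper end. The error available is technical: the log2 difference of 2 spots of the same probe on one array had an SD of 0.0963. It was 0.404 below a scaled signal of 50, 0.164 from 50 to 500 and 0.0737 above 500. The brightness of a gene, which sets its SD, is the mean of its log2 signals on the 4 arrays. The SDs below 500 rest on few pairs of a probe and an array, with 22 below 50 and 44 from 50 to 500. As both spots lie on one array, the SD says nothing of error between arrays or of the spread between mice. Mboat7 itself measured 1224 in F/F and 994 in LKO on chow, and 1105 and 916 on HFD, so that LKO minus F/F on the log2 scale was -0.30 with chow and -0.27 with HFD. Whether its probe lies in the deleted part is not given in the sources used here. The hepatocyte markers (Alb, Apoa1, Ttr, Cyp2e1, Serpina1a and Apob) were well above background on all 4 arrays.

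Of the 50 members, 26 (52%) were well above background on all 4 arrays, 9 on some and 15 (30%) on none, against 59.6% and 31.9% of all genes. On all 4 arrays were 12 of the 22 MMPs, 8 of the 19 ADAMTS genes, 3 of the 5 ADAMTS-like genes and 3 of the 4 TIMPs. The 15 genes below background throughout were Mmp1a, Mmp1b, Mmp10, Mmp16, Mmp20, Mmp21, Mmp24, Adamts3, Adamts6, Adamts8, Adamts16, Adamts17, Adamts18, Adamts19 and Adamtsl3. Of the 7 chromosome 9 genes with an AP-1 motif, Mmp7 was on all arrays, Mmp3 and Mmp13 on some, and Mmp1a, Mmp1b, Mmp10 and Mmp20 on none. On chow 29 members were above background in F/F and 28 in LKO, and on HFD 30 and 32. Of all spots, 54.2% and 53% were above background on these chow arrays, and 54.6% and 57% on the HFD arrays. Where a gene was below background on 1 array of a comparison, its difference is a bound, taken against the higher of the lowest signal above background on that array (6.51 to 9.34) and the probe's own signal.

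**Figure D1:**
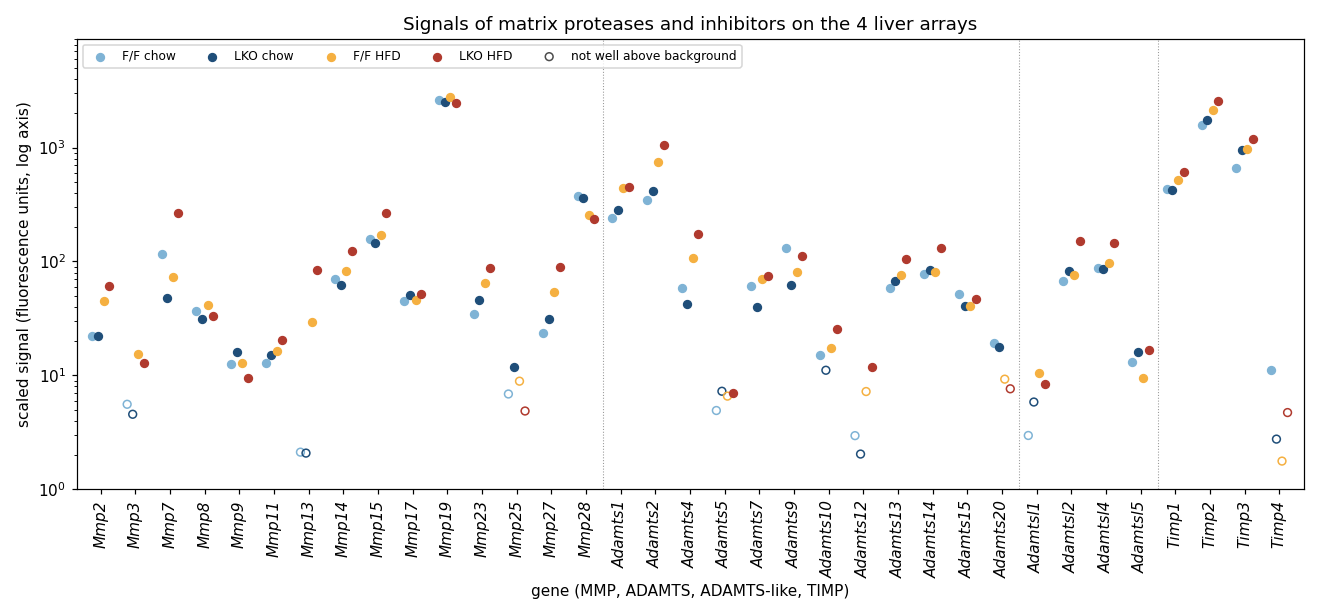
Scaled signal (fluorescence units, log axis) of the 35 members above background on at least 1 array, with 1 point per array and open points where the probe was not well above background. Mmp7, Mmp13, Adamts4, Adamts2 and Adamtsl2 have their highest point on LKO HFD, whereas Mmp19 lies between 2475 and 2807 on all arrays.

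On HFD, most members were brighter in LKO than in F/F liver. Among 31 members (30 measured and 1, Adamts12, as a bound), 25 were above F/F and 6 below it, against 45.9% and 54.1% of all genes, and the median log2 difference was 0.42 against -0.03 over all genes. Mmp7 (3.64-fold) and Mmp13 (2.83-fold) passed 2-fold, as did 2.36% of all genes, and no member was 2-fold lower (1.91% of all genes). Adamtsl2 was just short of 2-fold, with 1.995. The members were higher by more than 2 technical SDs of their brightness in 15 cases and lower in 1, Mmp19, against 15.3% and 21.8% of all genes. All 9 measured ADAMTS proteases were higher (median 0.48), and Adamts12 has a value there only because it was above background on LKO HFD. Also higher were 3 of 4 ADAMTS-like genes (median 0.69), all 3 measured TIMPs (median 0.27) and 9 of 14 MMPs (median 0.37). Most members are dim, so they were also set beside genes of like brightness. In the range from 30 to 300, 15 of 16 members were higher (54.2% of all genes), with a median of 0.52 against 0.03, and above 300, 5 of 7 were higher (36.5% of all genes), with 0.23 against -0.08. Below 30, where 27 of the 50 members lie, 8 had a value and 5 of these were higher (56.5% of all genes), with 0.45 against 0.07. After another background correction (normexp), the members' median was 0.23 against -0.04 over all genes, and 22 of 30 were higher (43.5% of all genes).

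On chow, the members showed no common direction. Among 30 members (27 measured and 3 as bounds), 14 were above F/F and 16 below it (50.7% and 49.3% of all genes), and their median was -0.02 against 0.00. No member was 2-fold higher (1.11% of all genes). Mmp7 (2.47-fold) and Adamts9 (2.10-fold) were at least 2-fold lower, as were 1.03% of all genes. With normexp neither reached 2-fold, with log2 differences of -0.78 and -0.61. By more than 2 technical SDs, 4 members were higher and 4 lower, against 11.8% and 9.61% of all genes. The medians were -0.01 for MMPs, -0.23 for ADAMTS proteases, 0.28 for ADAMTS-like genes and 0.06 for TIMPs.

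**Figure D2:**
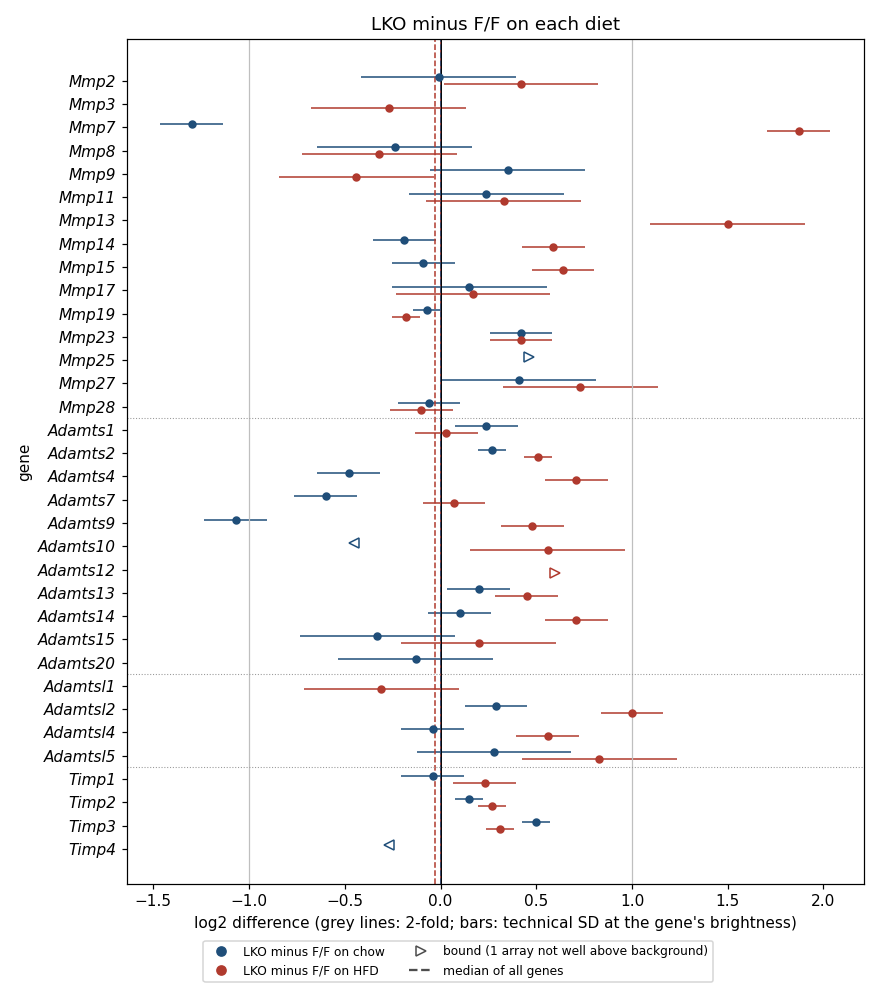
Log2 difference of LKO minus F/F for each member with a value, on chow (blue) and on HFD (red), with bars for the technical SD at the gene's brightness, open triangles for bounds, dashed lines for the median of all genes and grey lines at 2-fold. The red points lie to the right of 0 for 25 of 31 members, and the blue points for 14 of 30.

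Between the diets, members were mostly higher on HFD in both genotypes. Among 32 members in F/F liver (27 measured and 5 as bounds), 25 were higher and 7 lower (47.8% and 52.2% of all genes). The median was 0.20 against -0.02. Of those measured on both arrays, 22 were higher and 5 lower (46.9% of all measured genes were higher). A bound exists only where the brighter array was above background. Mmp2, Mmp13, Mmp27 and Adamts2 were at least 2-fold higher (5.21% of all genes) and Adamts20 at least 2-fold lower (2.94%). Of these values, Mmp13 and Adamts20 were bounds. In LKO liver, 27 of 32 were higher and 5 lower (43.5% and 56.5% of all genes), with a median of 0.65 against -0.07. In LKO, Mmp2, Mmp7, Mmp13, Mmp27, Adamts2, Adamts4 and Adamts10 were at least 2-fold higher (8.12% of all genes) and Adamts20 at least 2-fold lower (4.07%). Here Mmp13, Adamts10 and Adamts20 were bounds. By more than 2 technical SDs, 11 members were higher and 4 lower in F/F (24% and 24.7% of all genes), and 20 were higher and 3 lower in LKO (22.7% and 31.7%). The comparisons share arrays with each other, so their values are given side by side and not as separate support. With normexp the medians were 0.03 in F/F and 0.38 in LKO, against -0.04 and -0.09 over all genes. There, 18 of 31 members were higher in F/F (44.4% of all genes) and 21 of 30 in LKO (39.7%). Of the 17 member values at 2-fold or more, 12 fell short of it with normexp. The 5 that stayed were Mmp7 in LKO against F/F on HFD, Mmp7, Adamts2 and Adamts4 between the diets in LKO, and Adamts2 between the diets in F/F.

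**Figure D3:**
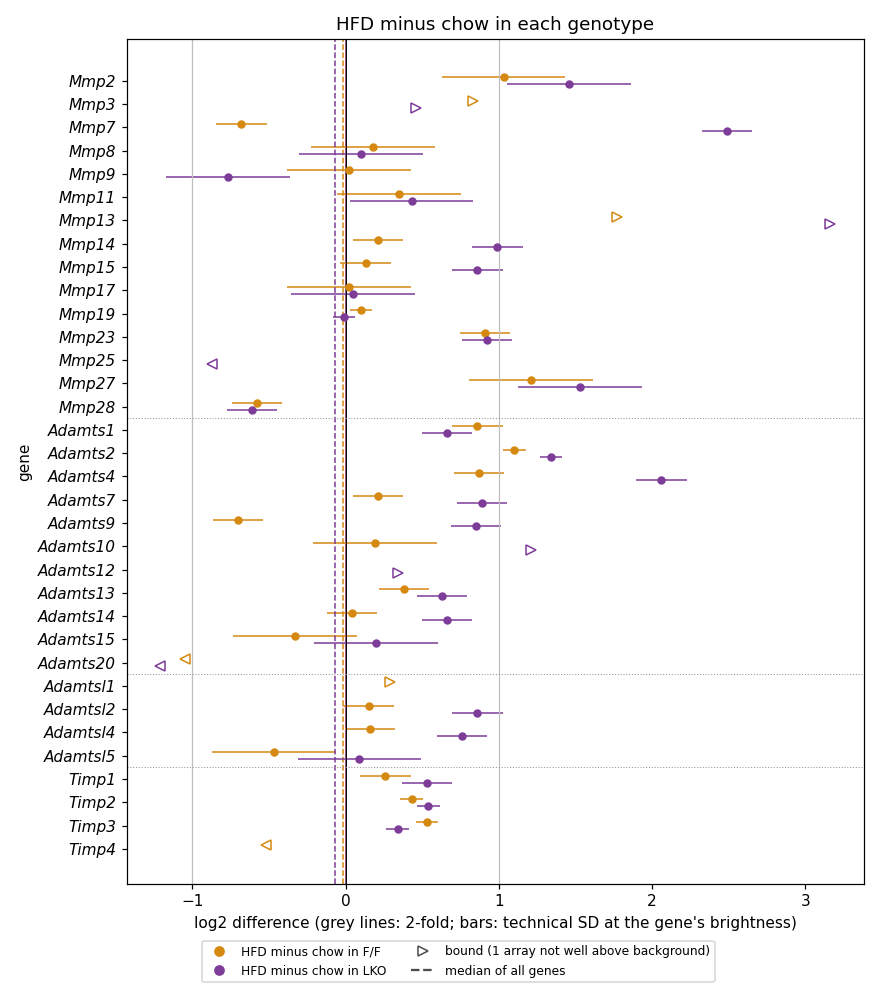
Log2 difference of HFD minus chow for each member with a value, in F/F (orange) and in LKO (purple), drawn with the same bars, triangles and lines as the plot of genotype differences. Mmp13, Mmp7 and Adamts4 lie farthest to the right in LKO, and Adamts20 is the member at least 2-fold lower in both genotypes.

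Mmp7, or matrilysin, is a small secreted MMP of epithelial cells that lacks the hemopexin domain. On chow its scaled signal was 117 in F/F and 47.4 in LKO, and on HFD it was 72.9 and 266. LKO HFD was the highest array and LKO chow the lowest, so that LKO liver was below F/F on chow (log2 -1.30) and above it on HFD (1.87). Between the diets it was lower on HFD in F/F (-0.68) and 5.61-fold higher in LKO (2.49). A second Mmp7 probe gave the same order between genotypes, with -0.87 on chow and 1.93 on HFD. Its lowest array was F/F HFD, at 27.1, with LKO chow at 30. Genes of the exocrine pancreas, a neighbouring tissue, were present on all 4 arrays and moved with Mmp7. Their 7 markers summed to 5599 in F/F and 3362 in LKO on chow, and 2933 and 10993 on HFD, and all 7 were lower in LKO on chow (median -0.92) and higher in LKO on HFD (median 1.90). For the carboxypeptidase gene Cpa1 the signals were 178, 65.5, 108 and 426 in the same order, with differences of -1.44 and 1.97. The bile duct markers Krt19, at 68.1, 54.3, 102 and 159, and Sox9, at 161, 96.5, 42.3 and 80.4, were also lower in LKO on chow and higher on HFD. Of all 5 bile duct markers, 4 were lower on chow (median -0.33), among them Spp1 by only -0.02, and Krt7 was higher by 0.04, while all 5 were higher on HFD (median 0.64), Epcam as a bound on both diets. The part of either tissue in the Mmp7 signal was not tested.

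Among the collagenases, which cut fibrillar collagen, Mmp13 is the main interstitial collagenase of rodents. On chow it read 2.12 in F/F and 2.08 in LKO, both not well above background, and on HFD it measured 29.5 and 83.5. Mmp13 was thus seen on the HFD arrays alone, and was 2.83-fold higher there in LKO (log2 1.5, technical SD 0.404). Against chow it was at least 3.41-fold higher in F/F and at least 8.94-fold higher in LKO. With normexp, log2 differences shrank to 0.68 between genotypes on HFD, and to 0.38 in F/F and 0.99 in LKO between the diets, below the bounds given here. Mmp8, the collagenase stored in neutrophil granules, measured 36.6 in F/F and 31.0 in LKO on chow, and 41.5 and 33.2 on HFD. Both LKO arrays were below the F/F array of the same diet, by -0.24 and -0.32, each within the technical SD. The neutrophil markers were lower in LKO on both diets too, in 5 of 6 genes each time, with medians of -0.70 on chow and -0.43 on HFD. Their sums were 5621 in F/F and 3106 in LKO on chow, and 5852 and 3760.1 on HFD, and their part in the Mmp8 signal was not tested.

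The gelatinases Mmp2 and Mmp9 degrade denatured and basement membrane collagen. Mmp2, a product of stellate cells and fibroblasts, measured 22.2 in F/F and 22.0 in LKO on chow, and 45.4 and 60.6 on HFD. The chow arrays were alike (-0.01), the HFD arrays were higher by 1.03 in F/F and 1.46 in LKO, and LKO was above F/F on HFD by 0.42, about 1 technical SD at this brightness. Mmp9, which leukocytes release, measured 12.7 in F/F and 16.1 in LKO on chow, and 12.8 and 9.46 on HFD. It ran the other way, with its lowest level on LKO HFD (-0.44 against F/F HFD and -0.77 against LKO chow), at a brightness where the technical SD is 0.404.

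The stromelysins act on proteoglycans, laminin and other MMPs. Mmp3 was not well above background on chow, where it read 5.58 in F/F and 4.56 in LKO, and measured 15.5 and 12.8 on HFD. It was thus another member seen on HFD alone, but with LKO slightly below F/F (-0.27). Mmp11, or stromelysin-3, measured 12.8 in F/F and 15.2 in LKO on chow, and 16.3 and 20.5 on HFD. Its 4 differences, from 0.24 to 0.43, were close to or below 1 technical SD (0.404).

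The membrane-type MMPs work at the cell surface. Mmp14, the activator of pro-MMP2, measured 70.9 in F/F and 62.3 in LKO on chow, and 82.2 and 124 on HFD. Mmp15 measured 156 in F/F and 146 in LKO on chow, and 170 and 264 on HFD. These transmembrane enzymes shared a pattern in which LKO HFD stood above the other 3 arrays, with log2 differences from F/F HFD of 0.59 for Mmp14 and 0.64 for Mmp15, and on chow of -0.19 and -0.09. Mmp17, which is held by a lipid anchor, measured 45.4 in F/F and 50.4 in LKO on chow, and 46.1 and 52.0 on HFD. Its differences did not exceed 0.17. Mmp25, the other lipid-anchored enzyme, was above background on LKO chow alone, at 11.9.

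Of the remaining MMPs, Mmp23 and Mmp27 were brighter on HFD. Mmp23, a membrane-bound form without the hemopexin domain, measured 34.4 in F/F and 46.0 in LKO on chow, and 64.9 and 86.8 on HFD. Mmp27 measured 23.4 in F/F and 31.1 in LKO on chow, and 54.2 and 89.6 on HFD. For both, F/F chow was the dimmest array and LKO HFD the brightest, with genotype differences of 0.42 on either diet for Mmp23 and of 0.41 and 0.73 for Mmp27. Mmp19 measured 2624 in F/F and 2499 in LKO on chow, and 2807 and 2475 on HFD. Its difference on HFD (-0.18) was small but over 2 technical SDs of 0.0737. Mmp28, or epilysin, measured 378 in F/F and 363 in LKO on chow, and 254 and 237 on HFD. It was lower on HFD in both genotypes, by -0.58 in F/F and -0.61 in LKO, and differed little between genotypes.

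The proteoglycanases of the ADAMTS family had no common pattern over the arrays. Adamts4, an aggrecanase, measured 58.7 in F/F and 42.0 in LKO on chow, and 107 and 175 on HFD. LKO was below F/F on chow (-0.48) and above it on HFD (0.71), and HFD was 4.16-fold above chow in LKO (2.06) and 0.87 above it on the log2 scale in F/F. Its 2 further probes gave 0.67 and 0.88 for LKO minus F/F on HFD, and were not well above background on chow. Adamts9, which cleaves versican, measured 131 in F/F and 62.2 in LKO on chow, and 80.5 and 112 on HFD. Here too LKO was lower on chow (-1.07) and higher on HFD (0.48), with F/F chow the brightest array. Adamts1, another versican-cleaving enzyme, measured 243 in F/F and 286 in LKO on chow, and 442 and 452 on HFD. It followed the diet (0.86 in F/F and 0.66 in LKO), and the genotypes on HFD differed by 0.03.

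Adamts15 measured 51.4 in F/F and 40.8 in LKO on chow, and 41 and 47 on HFD. Its differences of at most 0.33 in either direction lay within the technical SD. Adamts20 measured 19.2 on F/F chow and 17.6 on LKO chow, and read 9.27 and 7.63 in these genotypes on HFD, both not well above background. It was the one member at least 2-fold lower on HFD in both genotypes, by at least 2.08-fold in F/F and 2.31-fold in LKO, and with normexp these bounds shrank to -0.36 and -0.47 on the log2 scale. Adamts5, the other aggrecanase, was above background on LKO HFD alone, at 7.07, and no difference could be given.

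The procollagen N-proteinases Adamts2 and Adamts14 remove the amino-terminal propeptide of fibrillar procollagens. Adamts2 measured 345 in F/F and 416 in LKO on chow, and 739.7 and 1053 on HFD. It was higher on HFD, 2.14-fold in F/F and 2.53-fold in LKO. LKO was above F/F by 0.27 on chow and 0.51 on HFD, both over 2 technical SDs at its mean brightness (0.0737). Both chow signals were below 500, however, where the SD is 0.164, and 0.27 is under 2 of these. With normexp the chow difference was 0.17. Adamts14 measured 78.0 in F/F and 83.5 in LKO on chow, and 80.4 and 132 on HFD. LKO HFD stood apart from 3 near-equal arrays, by 0.71 against F/F HFD, and a second probe gave 0.86. The procollagens that Adamts2 acts on moved the same way by diet: Col1a1 measured 54.5 in F/F and 84.2 in LKO on chow, and 370.1 and 502 on HFD, and Col3a1 measured 223, 318, 1295 and 1552 in the same order.

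Other ADAMTS proteases had single known substrates or microfibrils as partners. Adamts13, which cuts von Willebrand factor and is made by stellate cells in the liver, measured 58.7 in F/F and 67.6 in LKO on chow, and 76.5 and 105 on HFD. LKO was above F/F by 0.20 on chow and 0.45 on HFD. Adamts7, which cleaves cartilage oligomeric matrix protein, measured 61.2 in F/F and 40.2 in LKO on chow, and 70.9 and 74.3 on HFD. It was lowest on LKO chow (-0.60), and the genotypes differed by 0.07 on HFD. Adamts12, which shares that substrate, was above background on LKO HFD alone, at 11.8, and at least 0.60 higher there than on F/F HFD on the log2 scale. Adamts10, which binds fibrillin microfibrils, measured 15.2 in F/F on chow and read 11.1 in LKO, which was not well above background, and it measured 17.4 and 25.6 on HFD. It was at least 2.31-fold higher on HFD in LKO, but its second probe differed by -0.03 where this one differed by 0.56 between genotypes on HFD, and with normexp the diet difference in LKO was 0.02.

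Among the ADAMTS-like genes, Adamtsl2, Adamtsl4 and Adamtsl5 were higher in LKO on HFD. Adamtsl2, which binds fibrillin and a latent TGF-beta binding protein, measured 68.0 in F/F and 82.9 in LKO on chow, and 75.7 and 151 on HFD. LKO HFD stood above 3 similar arrays, by 0.997 on the log2 scale against F/F HFD and by 0.86 against LKO chow. Adamtsl4, another fibrillin-binding protein, measured 87.7 in F/F and 85.1 in LKO on chow, and 97.9 and 144 on HFD. It had the same form, with 0.56 between genotypes on HFD and -0.04 on chow, and a second probe gave 1.08 on HFD. Adamtsl5 measured 13 in F/F and 15.9 in LKO on chow, and 9.45 and 16.8 on HFD. F/F HFD was its lowest array, 0.83 below LKO HFD, about 2 technical SDs. With normexp that difference was 0.05. A second Adamtsl5 probe was above background on LKO HFD alone, at least 0.11 above F/F HFD. Adamtsl1 was above background on the HFD arrays alone, at 10.6 in F/F and 8.49 in LKO.

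The inhibitors Timp1, Timp2 and Timp3 were well above background throughout and differed by smaller steps. Timp1, a secreted inhibitor that activated stellate cells release, measured 432 in F/F and 420.3 in LKO on chow, and 518 and 607 on HFD. Timp2, which also takes part in the activation of pro-MMP2 by MMP14, measured 1578 in F/F and 1755 in LKO on chow, and 2120.3 and 2556 on HFD. Timp3, which binds to the matrix and also blocks aggrecanases, measured 668 in F/F and 947 in LKO on chow, and 968 and 1199 on HFD. LKO HFD was the brightest array for each of the 3, and LKO minus F/F on HFD was 0.23, 0.27 and 0.31 in this order. HFD minus chow was 0.26, 0.43 and 0.53 in F/F and 0.53, 0.54 and 0.34 in LKO, and no Timp reached 2-fold. Timp3 was the one inhibitor with a larger genotype difference on chow (0.50) than on HFD. Timp4 was above background on F/F chow alone, at 11.2, and at least 1.20-fold higher there than on LKO chow and 1.44-fold higher than on F/F HFD.

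**Figure D4:**
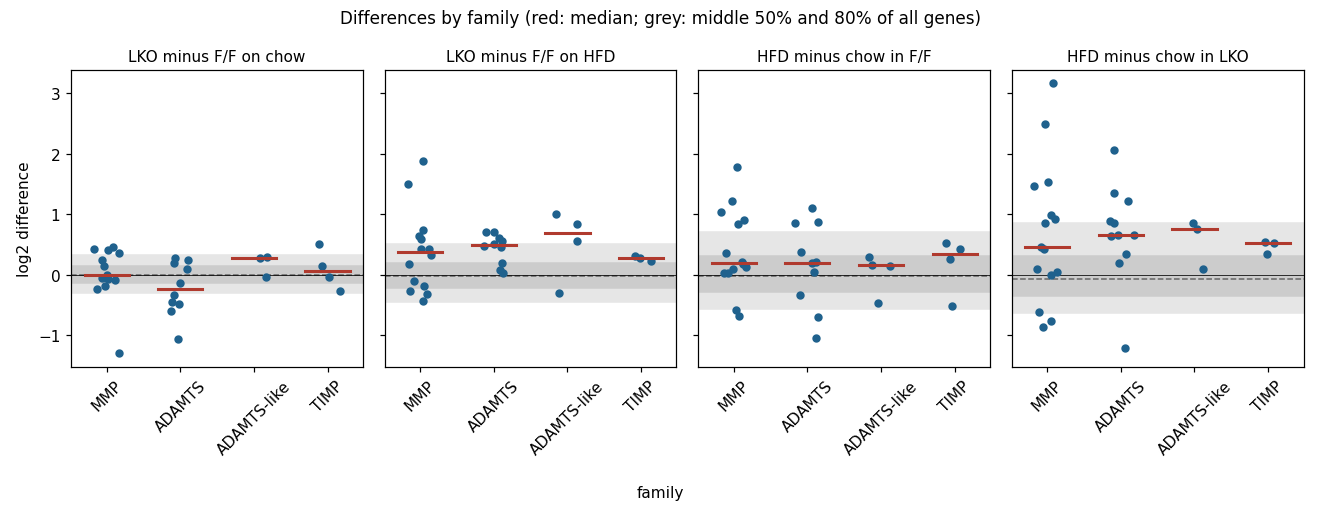
Log2 differences of the members in each family for the 4 comparisons, bounds included, with red lines at the family medians and grey bands for the middle 50% and 80% of all genes. All ADAMTS and TIMP points lie above 0 for LKO minus F/F on HFD, whereas on chow the families lie on both sides of 0.

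The order of the genotypes turned with the diet for some members. Of the 26 members on all 4 arrays, 5 (Mmp7, Mmp9, Adamts4, Adamts9 and Adamts15) had differences of opposite sign on the 2 diets, each at least 2 times the technical SD over all probes, as did 8.27% of all genes on all 4 arrays. In 4 of them LKO was lower on chow and higher on HFD, and in Mmp9 the reverse held. All 7 exocrine pancreas markers were also lower in LKO on chow (-0.58 to -2.01) and higher on HFD (0.86 to 2.04), and their part in the values of the 4 members was not tested. Set against the SD at their own brightness (0.404), the differences of Mmp9 were about 1 SD and those of Adamts15 were under it. The SD over all probes (0.0963) came mostly from bright probes, with 1103 of 1169 pairs of a probe and an array. No share of genes of like brightness is given here for this count.

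Markers of several liver cell types also differed between the genotypes. On chow, all 9 stellate cell and fibroblast markers (median 0.19) and 6 of 8 macrophage markers (0.11) were higher in LKO. All 6 endothelial markers (0.06) and 5 of 6 hepatocyte markers (0.03) were higher too, whereas 4 of 5 bile duct markers were lower (-0.33). Of the members, 14 of 30 were higher on chow. On HFD, all 8 macrophage markers (median 0.52), all 9 stellate cell and fibroblast markers (0.43) and all 5 bile duct markers (0.64) were higher in LKO, and all 6 hepatocyte markers were lower (-0.23), while the endothelial markers were 3 higher and 3 lower (0.05). Their sums (F/F and LKO with chow, then F/F and LKO with HFD) were 21322, 22306, 31197 and 45689.7 for macrophages, 17616, 18696, 24309 and 28533 for stellate cells and fibroblasts, and 888998, 904084, 741239.6 and 625159 for hepatocytes. The part of these cells in the members' signals was not tested, and in whole liver more cells of a type and more RNA per cell cannot be told apart. A sum follows its brightest probes. The T and B cell sum ran from 3308 on LKO HFD to 5157 on F/F chow and was mostly Cd4 (2838 on LKO HFD), whereas gene by gene 4 of 6 were higher in LKO on HFD (median 0.22), with Cd3g 2.42-fold higher and Cd8a at least 1.69-fold higher. The red blood cell sum was 41196 on F/F HFD and 20875 to 22427 on the others. Ngp and Cd79a were below background on all arrays.

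**Figure D5:**
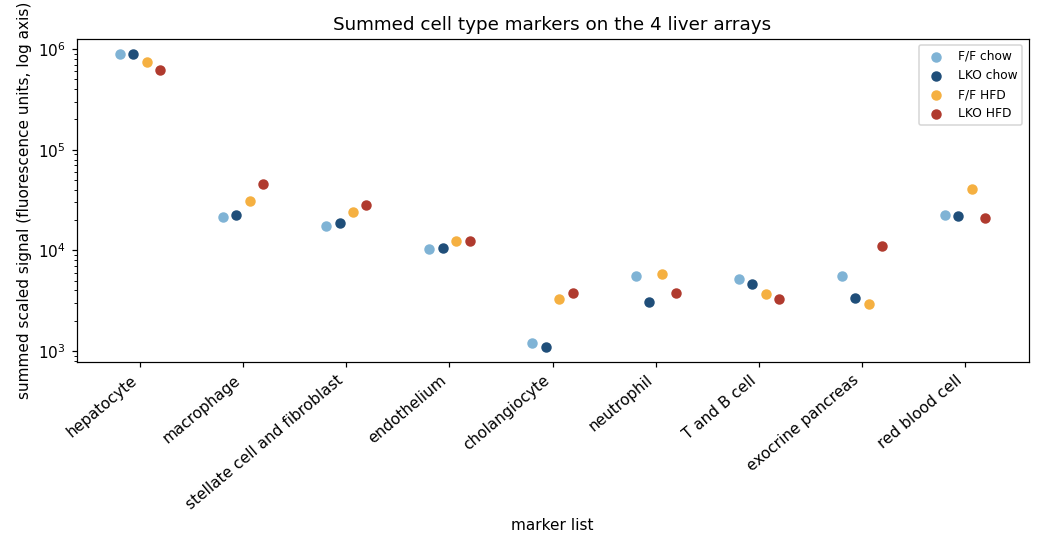
Summed scaled signal (fluorescence units, log axis) of the markers of 9 cell types, with 1 point per array. The macrophage and the stellate cell sums are highest on LKO HFD, the hepatocyte sum is lowest there, and the exocrine pancreas sum is 10993 there and 2933 to 5599 on the other arrays.

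A list of 57 further genes of matrix turnover (the plasminogen system, other matrix proteases, other inhibitors, MMP inducers, matrix substrates and crosslinking enzymes) was set beside the members. On HFD, 34 of the 49 genes (47 measured and 2 as bounds) were above F/F and 15 below it, against 45.9% and 54.1% of all genes, with a median of 0.26 against -0.03, and none reached 2-fold. On chow, 33 of 44 were higher (50.7% of all genes), with a median of 0.10 against 0.00, and 14 of 30 members were. Between the diets, 11 of 48 were at least 2-fold higher in F/F (5.21% of all genes) and 17 of 49 in LKO (8.12%), and 1 was 2-fold lower in each (2.94% and 4.07%). Of the higher genes, 10 in F/F and 16 in LKO were measured on both arrays, and the rest were bounds. The 3 highest in LKO on HFD were Ctss, a lysosomal cysteine protease of macrophages, with 6813 in F/F and 12866 in LKO (0.92), Plaur, the urokinase receptor, with 125 and 230.1 (0.88), and Plat, tissue plasminogen activator, with 20 and 34.8 (0.80). Among the lowest were Papln, a matrix protein related to the ADAMTS family, with 14.1 and 11.2 (-0.33), and Serpinf2, the plasmin inhibitor, with 29646 and 23739 (-0.32).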

How the data were processed

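The authors hybridised Cy3-labelled liver RNA to one-colour arrays and deposited the intensity of each spot as processed by Agilent Feature Extraction (version 12.0.3.1) after background subtraction, with the median intensity of spot and background and with flags. They also deposited a table of values on a linear scale, which equals the processed signal times 1 factor per array (2.60, 2.63, 2.41 and 2.10, column medians 34.5, 33.2, 36.1 and 36.0). The basis of the factors is not known.

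From the deposited intensity, log2 values were taken and each array's 75th percentile over spots other than controls was subtracted (Python 3.11.15, pandas 2.3.3, numpy 2.4.6). Spots of a probe were averaged without outliers. Of 56605 probes, 33767 matched a gene through the transcript accession and RefSeq (GRCm38.p6), and 80 of these belong to the members. For the 25 members with more than 1 probe, the probe with the highest mean signal stood for the gene. The array design names build mm9, so its coordinates were not used, and promoters are from RefSeq. A gene below background on both arrays has no value. With 1 array per condition there is no test and no p-value. Calculations were tested on simulated data, in which 200 brighter genes were changed 4-fold with noise set by the technical SD over all probes. That simulation did not cover the larger error of dim members.

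All 4 Timp genes, all members at least 2-fold different in any comparison and all members above background on all 4 arrays were given with their signals on the 4 arrays. The members, gene lists and comparisons were chosen with earlier results of these data known. Alternatives were normexp background correction (limma 3.58.1 in R 4.3.3, offset 50), quantile normalization, other percentiles, the deposited table, other filters, other probe rules and thresholds of 1.5-fold and 4-fold. All 4 arrays lay on 1 slide. Values of 2 genes of the lists beside the members are not reported here.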

Additional observations from a re-analysis of the deposited data

Results flagged for a closer look

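For 5 members above background on all 4 arrays, LKO and F/F differed in opposite directions on the 2 diets, beyond a set limit. The limit on each diet was 2 times the technical SD over all probes. It was passed by 8.27% of all genes on all 4 arrays. With 1 array per condition none of the members' differences between diets was tested. LKO minus F/F on HFD minus that on chow was 3.17 for Mmp7 (from -1.30 to 1.87), 1.55 for Adamts9 (from -1.07 to 0.48) and 1.19 for Adamts4 (from -0.48 to 0.71) on the log2 scale. It was 0.53 for Adamts15 (from -0.33 to 0.20) and -0.79 for Mmp9 (from 0.35 to -0.44), which are dim genes with a technical SD of 0.404 for a single difference. With normexp, Mmp7 and Adamts9 still passed the limit on both diets. Adamts4 (-0.15), Adamts15 (-0.09) and Mmp9 (0.04) no longer passed it on chow. The 7 exocrine pancreas markers were also lower in LKO on chow (-0.58 to -2.01) and higher on HFD (0.86 to 2.04), and their part in these values was not tested.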

How the results depend on the processing

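No paired analysis was possible because each condition has 1 array and no replicate number. No called difference changed its direction under any alternative, but the background correction mattered, since most members are dim. With normexp, no member was 2-fold lower on chow, 1 was 2-fold higher on HFD (median 0.23), 1 higher and 0 lower between diets in F/F (median 0.03), and 3 higher and 0 lower between diets in LKO (median 0.38), and 14 of 121 member values changed sign. With the deposited table, 0 were 2-fold lower in F/F between diets (median 0.34, with all genes at 0.11) and 12 were higher in LKO (median 0.78, with all genes at 0.07). With no filter, the medians were 0.12 on chow, 0.29 on HFD (5 members 2-fold higher) and 0.48 between diets in LKO (2 lower), and 7 were higher and 2 lower between diets in F/F, while the median of all genes moved to 0.06 on chow, -0.12 on HFD, -0.12 in F/F and -0.21 in LKO. With genes on all 4 arrays only, 1 member was 2-fold higher on HFD and 0 were lower between diets in F/F or LKO, which the filter itself brings, as it removes Mmp13 and Adamts20. The mean of all probes left 0 lower in F/F and 0 in LKO, quantile normalization left 0 lower in F/F, and the dimmest probe left 1 lower on chow and 0 lower between diets in LKO (median 0.85). A 1.5-fold threshold gave 10 higher on HFD, 8 higher and 3 lower between diets in F/F and 17 higher and 4 lower in LKO. A 4-fold threshold gave 0 lower on chow, 0 higher on HFD, 0 higher and 0 lower in F/F, and 3 higher and 0 lower in LKO. The counts under these alternatives include bounds where the setting allows them, and no share of all genes is given beside them. They describe the settings and are not a result about the members. Other causes were not tested. Of the members, 15 were not detectable on any array, and below a scaled signal of 50 differences under 0.404 are within 1 technical SD.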
